A study of Mus musculus with 2 samples.

Results

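The spliceosome and SR protein genes were described across mouse pseudoblastocysts, blastocyst-like embryos with a fluid-filled cavity that were grown from zygotes or from single isolated blastomeres. The genes were chosen by name: protein-coding genes with symbols that start with Snrp, Sf3a, Sf3b, Prpf, Srsf or Lsm, leaving out Snrpn. The rule found 58 genes of 21870 protein-coding genes with a symbol, in a table of 52366 genes. For 57 of them, the known subcomplex gave 8 groups: the Sm core with 7 genes, the U1 snRNP with 5, the U2 snRNP with 11, the tri-snRNP with 5, factors of activation and catalysis with 5, the LSm ring of U6 with 7, other LSm genes with 6 and SR proteins with 11. The remaining gene, Lsmem1, shares only its first letters with the LSm family and encodes a membrane protein. It was left out of the groups, and its 5 UMIs all lay in 8CB embryos.

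Oocytes of B6D2F1 females were fertilized in vitro with sperm of ICR males, and all embryos were cultured to 96 h postinsemination (hpi). 1C embryos were zygotes that had lost their zona pellucida at 5 hpi and stayed whole. 2CB embryos came from single blastomeres separated at the 2-cell stage (24 hpi), and 4CB and 8CB embryos from single blastomeres separated at the 4-cell and 8-cell stages (both 48 hpi). Each stage had 6 embryos, each with its own barcode, and every 2CB, 4CB or 8CB embryo is the progeny of 1 blastomere. The labels do not say which embryos share a parent, so p-values measure the spread between these embryos. The barcoded embryos were pooled into 2 libraries, one of the 1C and 8CB embryos and one of the 2CB and 4CB embryos. A difference between the 12 embryos of 2CB and 4CB and the 12 of 1C and 8CB and a difference between the library pools therefore cannot be told apart, and neither can fewer cells of a type and less RNA per cell.

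The spliceosome removes introns from pre-mRNA. It is built anew on each intron from small nuclear ribonucleoproteins (snRNPs): U1 marks the 5′ splice site, U2 the branch point, and the U4/U6.U5 tri-snRNP then joins and brings in the catalytic RNAs. A ring of Sm proteins surrounds the RNA of U1, U2, U4 and U5, and a ring of LSm proteins that of U6, while SR proteins bind exons and recruit the snRNPs to weak sites. In the early mouse embryo these proteins are at first supplied by the oocyte and are then made from the embryo's own genome. CEL-Seq2, the method used, counts the 3′ ends of transcripts with unique molecular identifiers (UMIs), so the values below are RNA levels of these genes and no measure of splicing itself.

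The UMIs of an embryo summed to 123594 to 368348 (1C), 332867 to 1507471 (2CB), 132725 to 1130360 (4CB) and 70941 to 356749 (8CB). The 58 genes took between 0.606% and 1.16% of an embryo's UMIs. Levels are given as CPM, each embryo scaled to 1000000 UMIs of the genes that passed a filter on low counts, with TMM library sizes. A gene was called at an adjusted p below 0.1 (edgeR's quasi-likelihood test, Benjamini-Hochberg over all 5940 genes that passed this filter). Of the 58 genes, 44 passed that filter, which lets a gene through if it is high enough in only 1 stage. The largest count of any of the 58 genes in an embryo was 1654 UMIs.

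Where spliceosome and SR protein genes changed, they were almost always lower in 2CB and 4CB than in 1C and 8CB embryos. In that comparison, 16 of the 44 tested genes (36.4%) fell and 1 (2.27%) rose, whereas among all 5940 genes 24% fell and 31.3% rose. The 44 genes had a median log2 fold change of -0.22 and 30 of them lay below 0, beside a median of 0.12 over all genes tested. Among the 4 stages without regard to direction, 12 of the 44 genes (27.3%) changed, beside 47.1% of all genes. The falls were spread over 7 of the 8 groups, with 5 in the U2 snRNP, 4 among the SR proteins, 2 each in the U1 snRNP and the tri-snRNP, and 1 each in the Sm core and in both LSm groups, and the only rise was that of the U1-associated gene Prpf40b. No call was made among the 5 genes of activation and catalysis. Cell type markers, given at the end, moved with the same division of stages. For none of the 44 genes did every 2CB and 4CB embryo lie below or above every 1C and 8CB embryo, a separation that 2.19% of all genes showed downward and 3.5% upward.

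**Figure D1:**
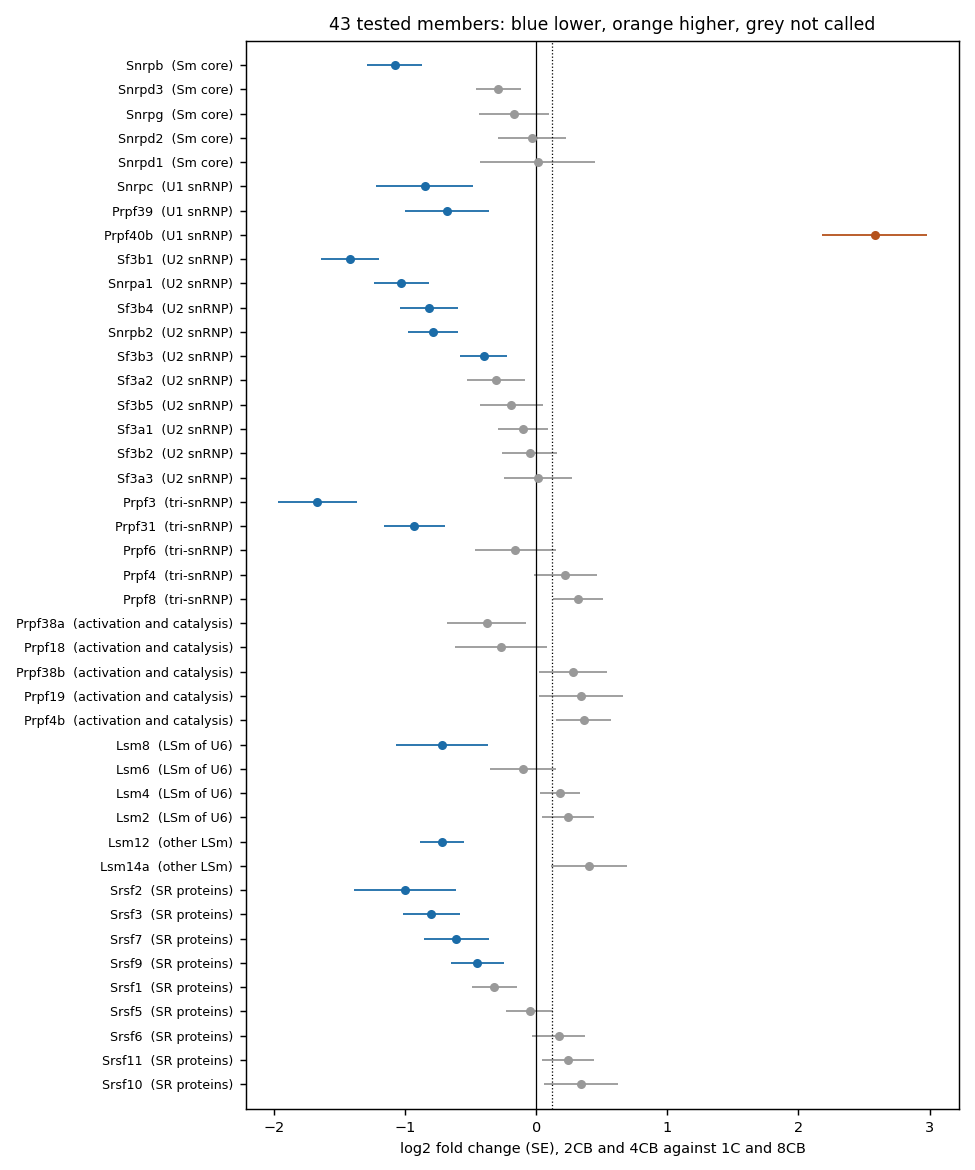
Log2 fold change of 43 of the 44 tested genes in 2CB and 4CB relative to 1C and 8CB embryos (x axis, points with SE, 12 embryos a side), ordered by subcomplex on the y axis; blue genes were called lower, orange higher and grey not called, and the dotted line is the median of all genes tested (0.12). The blue points run from -1.67 for Prpf3 to -0.40 for Sf3b3, and Prpf40b stands alone at 2.58.

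The promoter windows of 3 genes are shown because these genes carry the ends of this range: Sf3b1 had the lowest adjusted p among the genes that fell, Prpf3 the largest fall, and Prpf40b the only rise. Each window holds 250 bases before and 50 after the RefSeq transcription start on GRCm38.p6, read 5′ to 3′ along the gene's strand, at chr1:55027429-55027728 (minus strand) for Sf3b1, chr3:95855836-95856135 (minus strand) for Prpf3 and chr15:99294991-99295290 (plus strand) for Prpf40b. Capitals mark every match, on either strand, to the GC box (GGGCGG), the E box (CACGTG), the CCAAT box (CCAAT) and the TATA box (TATAAA).
Sf3b1: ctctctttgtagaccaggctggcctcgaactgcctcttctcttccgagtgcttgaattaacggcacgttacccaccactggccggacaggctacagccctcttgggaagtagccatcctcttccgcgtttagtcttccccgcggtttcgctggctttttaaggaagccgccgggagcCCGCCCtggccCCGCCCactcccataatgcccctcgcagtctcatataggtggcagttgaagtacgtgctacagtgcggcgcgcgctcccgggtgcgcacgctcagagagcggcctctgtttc
Prpf3: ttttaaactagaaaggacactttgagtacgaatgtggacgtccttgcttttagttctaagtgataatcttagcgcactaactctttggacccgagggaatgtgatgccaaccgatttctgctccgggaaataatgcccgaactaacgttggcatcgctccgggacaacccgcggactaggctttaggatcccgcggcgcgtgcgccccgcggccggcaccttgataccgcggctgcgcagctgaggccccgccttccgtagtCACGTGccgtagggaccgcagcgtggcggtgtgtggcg
Prpf40b: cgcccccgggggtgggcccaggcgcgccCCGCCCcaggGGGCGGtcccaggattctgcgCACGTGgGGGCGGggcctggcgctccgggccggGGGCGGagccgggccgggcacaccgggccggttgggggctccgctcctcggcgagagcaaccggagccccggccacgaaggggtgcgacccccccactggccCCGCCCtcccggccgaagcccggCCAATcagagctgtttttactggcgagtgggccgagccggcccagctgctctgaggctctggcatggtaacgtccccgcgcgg
The Sf3b1 window held 2 GC boxes and no other match, the Prpf3 window 1 E box, and the Prpf40b window 5 GC boxes, 1 E box and 1 CCAAT box. Windows were found for 49 of the 58 genes, the first listed being used where a gene had several. A GC box stood in 8 of 13 windows of genes that fell, in 15 of 22 windows of tested genes with no call, and in 35.9% of 27025 windows of all genes. The E box was in 2 of the 13, none of the 22 and 7.24% of all windows, the CCAAT box in 4 of the 13, 11 of the 22 and 37.9%, and the TATA box in 3 of the 13, none of the 22 and 14.2%. These matches describe letters in the window only.

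The U2 snRNP, which recognizes the branch point, had the most calls of the 8 groups. Of its 11 genes 10 were tested, and in 2CB and 4CB relative to 1C and 8CB 5 (50%) fell, beside 24% of all genes: Sf3b1, Sf3b3 and Sf3b4 of the SF3b complex, which clamps the branch-point helix, and both proteins particular to U2, Snrpa1 (U2-A′) and Snrpb2 (U2-B″). The other 5, among them all 3 genes of the SF3a complex, which ties SF3b to U2, were not called in that comparison. The group's median log2 fold change was -0.36, beside 0.12 over all genes. Summed over its 11 genes, the level ranged from 1649 to 3475 CPM in the 2CB and 4CB embryos and from 2694 to 5489 CPM in the 1C and 8CB embryos. All 12 of the former lay below the median of the latter, and 9 below its lowest embryo. Much of this difference lay in Sf3b1. Its median was 665 CPM in 2CB and 4CB and 1955 CPM in 1C and 8CB, beside 2566 and 4418 CPM for the sum.

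Sf3b1 (ENSMUSG00000025982.13, chr1:54985169-55027481 on GRCm38), the scaffold of SF3b, lay at 1071 to 2696 CPM (median 2064) in 1C, 648 to 1139 (median 726) in 2CB, 358 to 1068 (median 437) in 4CB and 774 to 3005 (median 1845) in 8CB. Every 2CB and 4CB embryo was below the median of 1C and 8CB, with overlap at the lowest 1C and 8CB embryos. The fitted level was 2.68-fold lower (log2 -1.42, SE 0.22, adjusted p = 6.45e-06). Snrpa1 was at 67 to 151 CPM (median 124) in 1C, 43.2 to 122 (median 61) in 2CB, 46.1 to 87.4 (median 67.3) in 4CB and 100 to 213 (median 149) in 8CB. Here 8 of the 12 embryos of 2CB and 4CB were below the lowest 1C or 8CB embryo, and the other 4 overlapped the 1C values, the highest of them a 2CB embryo at 122 CPM. Its fold change was -1.03 on the log2 scale (SE 0.21, adjusted p = 0.000159). Sf3b4, which contacts the pre-mRNA upstream of the branch point, was found at 126 to 386 CPM (median 273) in 1C, 112 to 287 (median 138) in 2CB, 67.8 to 259 (median 142) in 4CB and 129 to 381 (median 289) in 8CB. The ranges overlapped widely although 11 of 12 embryos were below the median of the other side (log2 -0.82, SE 0.22, adjusted p = 0.00315).

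Snrpb2 had medians of 211 and 232 CPM in 1C and 8CB and of 115 and 130 CPM in 2CB and 4CB (log2 -0.79, SE 0.19, adjusted p = 0.00118). The weakest U2 call was Sf3b3 (log2 -0.40, SE 0.18, adjusted p = 0.0741; kept in 17 of the 24 fits that left out 1 embryo, with log2 from -0.47 to -0.31, and lost under 5 of the other settings), a scaffold of SF3b that shares its locus with Cog4 on the opposite strand. Cog4 itself was higher in 2CB and 4CB (log2 1.10, adjusted p = 0.000506), and reads of the pair could not be told apart without a stated strand setting. Among the U2 genes with no call in that comparison, Sf3a2 had the highest level, with medians of 654, 669, 437 and 821 CPM in 1C, 2CB, 4CB and 8CB. Its 1C and 2CB medians were alike and its 4CB median was the lowest (log2 -0.31, SE 0.22, adjusted p = 0.236), and it was called lower in 4CB against 8CB alone. The remaining genes Sf3a1, Sf3a3, Sf3b2 and Sf3b5 lay between log2 -0.19 and 0.01.

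**Figure D2:**
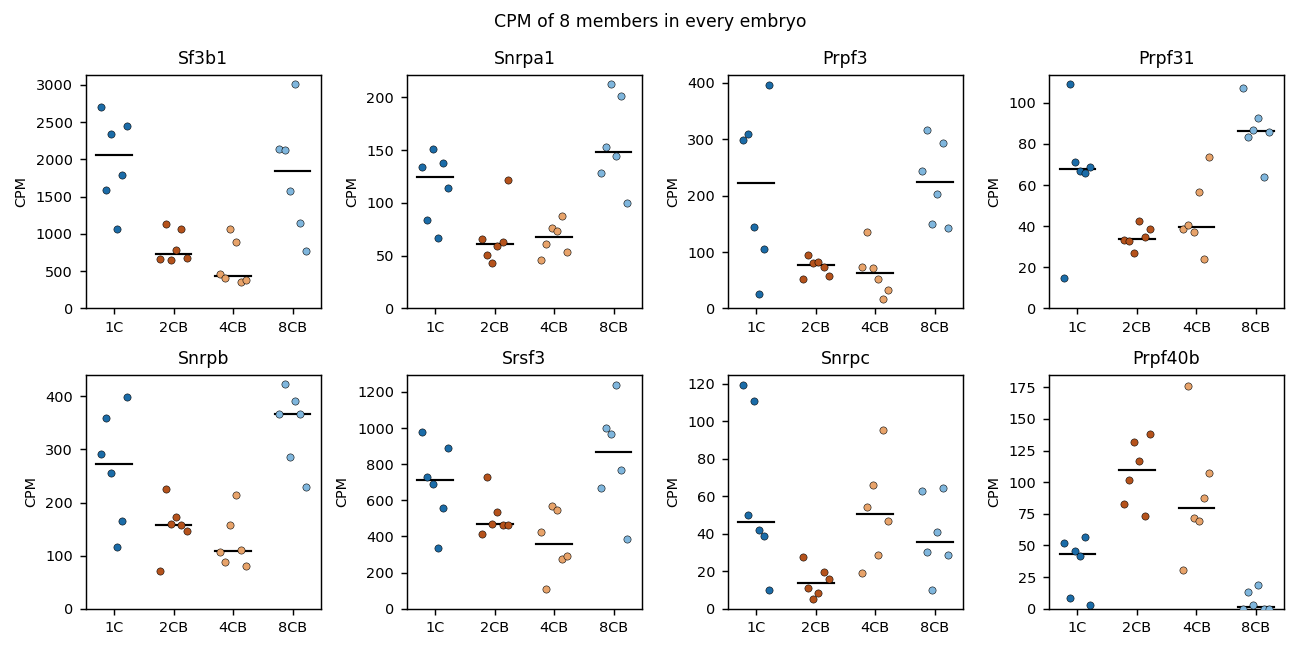
CPM (y axis) of 8 genes in each of 24 embryos by stage (x axis), with a line at the median of 6 embryos; blue points are from the 1C and 8CB pool and orange ones from the 2CB and 4CB pool. Sf3b1, Snrpa1, Prpf3, Prpf31, Snrpb and Srsf3 are lower in 2CB and 4CB, Prpf40b is higher there with a median of 1.67 CPM in 8CB, and Snrpc has its lowest median in 2CB (13.7 CPM).

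In the tri-snRNP, 2 of 5 tested genes (40%), Prpf3 and Prpf31, fell in 2CB and 4CB relative to 1C and 8CB and none rose, beside 24% and 31.3% of all genes, and the other 3 tested genes were not called in that comparison. Both genes that fell encode proteins of the U4/U6 part: PRPF3 binds the U4/U6 duplex and PRPF31 the U4 stem. Prpf3 (ENSMUSG00000015748.13, chr3:95830124-95855885) lay at 25.1 to 396 CPM (median 222) in 1C, 52.3 to 94.8 (median 77.7) in 2CB, 15.9 to 136 (median 62.1) in 4CB and 143 to 317 (median 224) in 8CB. No 2CB or 4CB embryo reached the lowest 8CB value, but a 1C embryo at 25.1 CPM lay below all but 1 of them. The fitted level was 3.18-fold lower (log2 -1.67, SE 0.30, adjusted p = 3.46e-05). Prpf31 had 14.9 to 109 CPM (median 67.8) in 1C, 27 to 42.5 (median 33.9) in 2CB, 23.8 to 73.4 (median 39.5) in 4CB and 64.1 to 107 (median 86.3) in 8CB. All 12 embryos of 2CB and 4CB were below the median of the others (log2 -0.93, SE 0.23, adjusted p = 0.00158).

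Prpf4, the partner of PRPF3 in the same U4/U6 module, had a log2 fold change of 0.22 (SE 0.24, adjusted p = 0.468), and Prpf6, the bridge between U5 and U4/U6, one of -0.16 (SE 0.31, adjusted p = 0.7). Prpf8, the U5 protein that cradles the active site, was at 196 to 405 CPM (median 239) in 1C, 278 to 663 (median 389) in 2CB, 244 to 480 (median 378) in 4CB and 233 to 536 (median 412) in 8CB. Its 1C median was the lowest and the other 3 stages overlapped, so the comparison of both stages with both gave log2 0.32 (SE 0.19, adjusted p = 0.163). Summed over its 5 genes, the tri-snRNP ranged from 483 to 885 CPM in 2CB and 4CB and from 533 to 1014 CPM in 1C and 8CB.

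In the Sm core, the ring that U1, U2, U4 and U5 share, 1 of 5 tested genes (20%) fell, beside 24% of all genes. It was Snrpb, which encodes the SmB protein, whereas Snrpd1, Snrpd2, Snrpd3 and Snrpg had log2 fold changes between -0.29 and 0.01 and no call. Snrpe and Snrpf were not tested. Snrpb lay at 117 to 399 CPM (median 273) in 1C, 71.6 to 225 (median 158) in 2CB, 80.1 to 215 (median 109) in 4CB and 229 to 423 (median 366) in 8CB. The 8CB embryos lay above every 2CB and 4CB embryo and the 1C embryos overlapped them, giving a 2.11-fold lower fitted level (log2 -1.08, SE 0.21, adjusted p = 0.000135). Snrpd3, the uncalled gene with the highest level, had medians of 161, 138, 113 and 135 CPM in 1C, 2CB, 4CB and 8CB (log2 -0.29, SE 0.17, adjusted p = 0.164). Its 4 ranges overlapped. The summed level of the 7 Sm genes was 278 to 660 CPM in 2CB and 4CB and 352 to 788 CPM in 1C and 8CB.

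In the U1 snRNP group, 2 of 4 tested genes (50%) fell and 1 (25%) rose in 2CB and 4CB relative to 1C and 8CB, beside 24% and 31.3% of all genes. The genes described include Snrpc (U1-C, which stabilizes pairing with the 5′ splice site) and the U1-associated factors Prpf39 and Prpf40b. Prpf40b rose, and Snrpc and Prpf39 fell. Snrpa (U1-A) was not tested. Prpf40b (ENSMUSG00000023007.15, chr15:99295087-99317018) was found at 3.27 to 56.9 CPM (median 43.6) in 1C, 73.4 to 138 (median 110) in 2CB, 30.7 to 176 (median 79.7) in 4CB and 0 to 18.5 (median 1.67) in 8CB. Of the 12 embryos of 2CB and 4CB 11 were above every 1C and 8CB embryo, and 8CB held only 10 UMIs of the gene in all. The fitted level was 5.99-fold higher (log2 2.58, SE 0.40, adjusted p = 5.09e-06).

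Snrpc was at 9.81 to 119 CPM (median 46) in 1C, 5.4 to 27.6 (median 13.7) in 2CB, 19.2 to 95.4 (median 50.5) in 4CB and 9.99 to 64.1 (median 35.3) in 8CB. The 2CB median was the lowest, a 1C and an 8CB embryo at 9.81 and 9.99 CPM lay within the 2CB range, and 4CB embryos spread over the range of 1C and 8CB. Its call in the comparison of both stages with both (log2 -0.85, SE 0.37, adjusted p = 0.0558) was lost without 1C replicate 1, 1C replicate 3 or 8CB replicate 1, where log2 was -0.72, -0.69 and -0.73. Prpf39 had medians of 34, 13.3, 25.5 and 28.1 CPM in 1C, 2CB, 4CB and 8CB, again with the lowest median in 2CB (log2 -0.68, SE 0.32, adjusted p = 0.0785). That call held without any 1 of 15 embryos and was lost without any 1 of the other 9, with log2 from -0.82 to -0.60 over these fits, and it was also lost under 6 of the other settings, DESeq2 and thinning to equal depth among them.

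The factors of activation and catalysis gave no call in 2CB and 4CB relative to 1C and 8CB, and 1 of them, Prpf4b, was called in 4CB against 8CB alone (given with that comparison). Prpf38a belongs to the precatalytic complex, Prpf4b is a kinase that acts on the tri-snRNP, Prpf19 is the ubiquitin ligase of the complex named after it, and Prpf18 acts in the second step. Their log2 fold changes ran from -0.38 for Prpf38a to 0.36 for Prpf4b. Prpf38b, the one with the highest level, had medians of 176, 160, 180 and 97.6 CPM in 1C, 2CB, 4CB and 8CB (log2 0.28, SE 0.26, adjusted p = 0.396). Its 8CB median was the lowest, and its 4 ranges overlapped. The group's summed level was 286 to 583 CPM in 2CB and 4CB and 258 to 552 CPM in 1C and 8CB.

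The LSm ring of U6, which holds the U6 RNA for assembly, gave 1 call. Of its 7 genes 4 were tested, and 1 (25%) fell, near the 24% of all genes. The median log2 fold change was 0.04. Lsm8, the subunit that sets the nuclear ring of U6 apart from the cytoplasmic ring with LSm1, lay at 25.1 to 172 CPM (median 91.6) in 1C, 19.3 to 111 (median 48.5) in 2CB, 6.68 to 101 (median 40.7) in 4CB and 14.3 to 126 (median 91.6) in 8CB. Its ranges overlapped almost wholly although 10 of 12 embryos were below the median of the other side (log2 -0.72, SE 0.35, adjusted p = 0.0875). The call was kept in 7 of the 24 fits that each left out 1 embryo, over which log2 ran from -0.95 to -0.59, and was lost with DESeq2, with its size factors, with no scaling factor and after thinning. Lsm4, which is common to both rings, had medians of 540, 591, 555 and 497 CPM in 1C, 2CB, 4CB and 8CB and a log2 fold change of 0.18 (SE 0.15, adjusted p = 0.331). Lsm2 and Lsm6 were at log2 0.24 and -0.10.

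Among the other LSm genes, which act in mRNA decay, histone mRNA processing and translation, 2 of 6 were tested. Lsm12 fell, and lay at 423 to 635 CPM (median 480) in 1C, 144 to 383 (median 293) in 2CB, 219 to 413 (median 284) in 4CB and 311 to 674 (median 452) in 8CB. Of the 12 embryos of 2CB and 4CB 9 lay below the lowest 1C or 8CB embryo (log2 -0.72, SE 0.17, adjusted p = 0.000834). Lsm14a, a component of P-bodies, had medians of 74, 83.8, 97 and 75.9 CPM in 1C, 2CB, 4CB and 8CB and no call (log2 0.40, SE 0.29, adjusted p = 0.267). Its paralog Lsm14b did not pass the filter. With no filter it was higher in 2CB and 4CB (log2 1.21, adjusted p = 0.0579), with medians of 7.32, 28.5, 20.5 and 13.9 CPM in 1C, 2CB, 4CB and 8CB.

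The SR proteins, which define exons and also take part in mRNA export, fell in 4 of 9 tested genes (44.4%), Srsf2, Srsf3, Srsf7 and Srsf9, and rose in none, beside 24% and 31.3% of all genes. The group's median log2 fold change was -0.32, beside 0.12 over all genes. Srsf3, one of the smallest SR proteins, lay at 335 to 978 CPM (median 711) in 1C, 413 to 731 (median 468) in 2CB, 109 to 568 (median 360) in 4CB and 387 to 1238 (median 868) in 8CB. All 12 embryos of 2CB and 4CB were below the median of the others, with overlap at the low end of 1C and 8CB (log2 -0.80, SE 0.22, adjusted p = 0.00343). Srsf7, the close relative of Srsf3 that carries a zinc knuckle, had 75.3 to 306 CPM (median 153) in 1C, 96.4 to 211 (median 127) in 2CB, 53.4 to 183 (median 115) in 4CB and 147 to 381 (median 200) in 8CB. The 8CB median was the highest, and the ranges of all stages overlapped (log2 -0.61, SE 0.25, adjusted p = 0.041).

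Srsf2 (SC35), which binds exonic enhancers, was at 33.5 to 119 CPM (median 52.5) in 1C, 16 to 67.9 (median 27.4) in 2CB, 3.84 to 40.4 (median 29.2) in 4CB and 0 to 129 (median 35) in 8CB. The 8CB embryos spanned the whole range, from no UMI to the highest value of any embryo (1.99-fold lower in the fit, SE 0.39 in log2, adjusted p = 0.0376). The call was lost without 8CB replicate 4 (log2 -0.78) and after each embryo was thinned to the lowest depth (log2 -0.46). Srsf2 overlaps Mettl23 on the opposite strand, which was lower in 2CB and 4CB as well (log2 -2.19, adjusted p = 2.36e-05), so the share of Mettl23 reads in the Srsf2 counts could not be separated. Srsf9 had medians of 137 and 196 CPM in 1C and 8CB and of 128 and 95.2 CPM in 2CB and 4CB (log2 -0.45, SE 0.20, adjusted p = 0.0587), and its call was lost without 2CB replicate 1 (log2 over the fits that left out 1 embryo from -0.55 to -0.39), with no filter and without the 2 shallowest embryos of each pool.

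Srsf1 (SF2/ASF), which helps U1 to bind at the 5′ splice site, had medians of 630, 583, 467 and 636 CPM in 1C, 2CB, 4CB and 8CB. The 4CB median was the lowest and the ranges overlapped (log2 -0.32, SE 0.17, adjusted p = 0.126). It was called lower under 3 other settings and in 5 of the 24 fits that left out 1 embryo. Srsf5, Srsf6, Srsf10 and Srsf11 lay between log2 -0.05 and 0.34 with no call in 2CB and 4CB relative to 1C and 8CB. Summed over its 11 genes, the SR group ranged from 1390 to 2660 CPM in 2CB and 4CB and from 1917 to 3719 CPM in 1C and 8CB, with 10 of the 12 former embryos below the median of the latter.

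**Figure D3:**
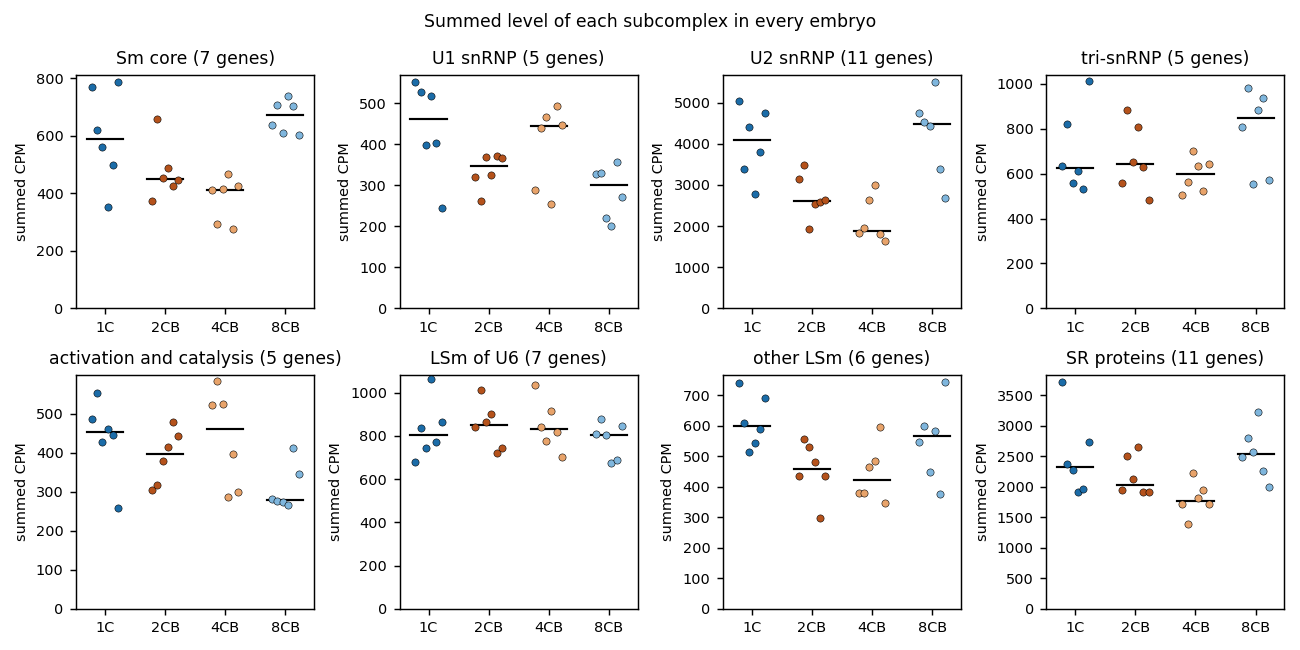
Summed CPM (y axis) of the genes of each of the 8 subcomplexes in each embryo by stage (x axis), with a line at the median of 6 embryos; blue points are from the 1C and 8CB pool, orange ones from the 2CB and 4CB pool. The U2 snRNP is lower in 2CB and 4CB (medians 2612 and 1885 CPM beside 4097 and 4484 CPM in 1C and 8CB), with much of that difference in Sf3b1. The LSm ring of U6 is nearly level (medians 805 to 852 CPM).

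The remaining 14 genes did not pass the filter. Snrpf and Srsf12 had no UMI in any embryo, which allows up to 0.312 CPM over all 24 embryos (3 counts of 9610785 UMIs, counting error only). Snrpf encodes a part of the Sm ring, which every cell uses, so it is only listed at 0 here, and whether its reads were mapped or assigned to it was not tested. Srsf4 had 5 UMIs. Lsm1, Lsm3, Lsm5, Lsm7, Lsm10, Lsm11, Lsm14b, Sf3b6, Snrpa and Snrpe had between 32 and 249 UMIs in all. Snrpf overlaps Ccdc38 on the opposite strand, and Srsf4 overlaps other genes on both strands.

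The comparison across pools was also made in 2 parts, 2CB against 1C and 4CB against 8CB, which share no embryo but cross the same 2 pools. In 2CB against 1C, 11 of the 44 tested genes (25%) fell and 2 (4.55%) rose, beside 17.5% and 24% of all genes. The 11 falls became 5 with no filter on low counts and 7 after each embryo was thinned to the lowest depth. In 4CB against 8CB, 13 (29.5%) fell and 3 (6.82%) rose, beside 17% and 23.2% of all genes. Here the 13 falls became 8 after thinning and 8 at an adjusted p below 0.05, and the 3 rises became 1 with no filter. The median log2 fold changes of the 44 genes were -0.22 and -0.17, beside 0.10 and 0.14 over all genes. In both comparisons 8 genes (18.2%) fell, beside 11% of all genes: Snrpb, Sf3b1, Sf3b4, Snrpa1, Snrpb2, Lsm12, Prpf3 and Prpf31. Prpf40b was the 1 gene (2.27%) that rose in both, beside 16.2% of all genes, and none was called in opposite directions.

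Sizes in both comparisons differed from gene to gene. Sf3b1 had log2 -1.26 (SE 0.32, adjusted p = 0.00264) in 2CB against 1C and -1.58 (SE 0.32, adjusted p = 0.000374) in 4CB against 8CB. Prpf3 had -1.52 (SE 0.41) and -1.82 (SE 0.43), and Prpf31 -0.92 (SE 0.33) and -0.94 (SE 0.33), in the same order. Snrpb (-0.76 and -1.40), Snrpa1 (-0.81 and -1.24) and Lsm12 (-0.83 and -0.61) also fell in both. The calls of Sf3b4 in 2CB against 1C (log2 -0.68, SE 0.31, adjusted p = 0.0917) and of Snrpb2 in 4CB against 8CB (log2 -0.59, SE 0.27, adjusted p = 0.098) were close to the threshold, and their values in the other comparison were -0.96 and -0.99. Prpf40b rose by log2 1.60 (SE 0.50, adjusted p = 0.0137) and 3.57 (SE 0.63, adjusted p = 8.07e-05), with a difference of 1.97 (SE 0.81, adjusted p = 0.481) that was not called.

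Other genes passed the test in 1 of the comparisons only, among them Sf3a2 (log2 -0.74, SE 0.31, adjusted p = 0.0638) and Sf3b3 (log2 -0.67, SE 0.26, adjusted p = 0.0513) of U2, which fell in 4CB against 8CB and had log2 values of 0.11 and -0.13 in 2CB against 1C. In U1, Snrpc (log2 -2.04, SE 0.52, adjusted p = 0.0031) and Prpf39 (-1.20, SE 0.44, adjusted p = 0.0345) fell in 2CB against 1C. In 4CB against 8CB they had log2 values of 0.35 and -0.16. The SR proteins had no call in 2CB against 1C and 3 falls in 4CB against 8CB, those of Srsf3 (log2 -1.17, SE 0.31, adjusted p = 0.00529), Srsf7 (-0.90, SE 0.35, adjusted p = 0.051) and Srsf9 (-0.87, SE 0.28, adjusted p = 0.0199), together with a rise of Srsf11 (0.75, SE 0.29, adjusted p = 0.0436). Prpf8 rose in 2CB against 1C (log2 0.73, SE 0.27, adjusted p = 0.0355) and Prpf4b in 4CB against 8CB (log2 0.81, SE 0.31, adjusted p = 0.0443). When the difference of the comparisons was tested itself, none of the 44 genes was called by edgeR, beside 0% of all genes. Before adjustment 8 of the 44 had p below 0.05, beside 532 of all 5940 genes tested. By DESeq2 there was no call either, with 9 genes below 0.05 before adjustment. The Snrpc difference was the largest among the genes named here (log2 2.39, SE 0.73, unadjusted p = 0.00278, adjusted p = 0.318).

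**Figure D4:**
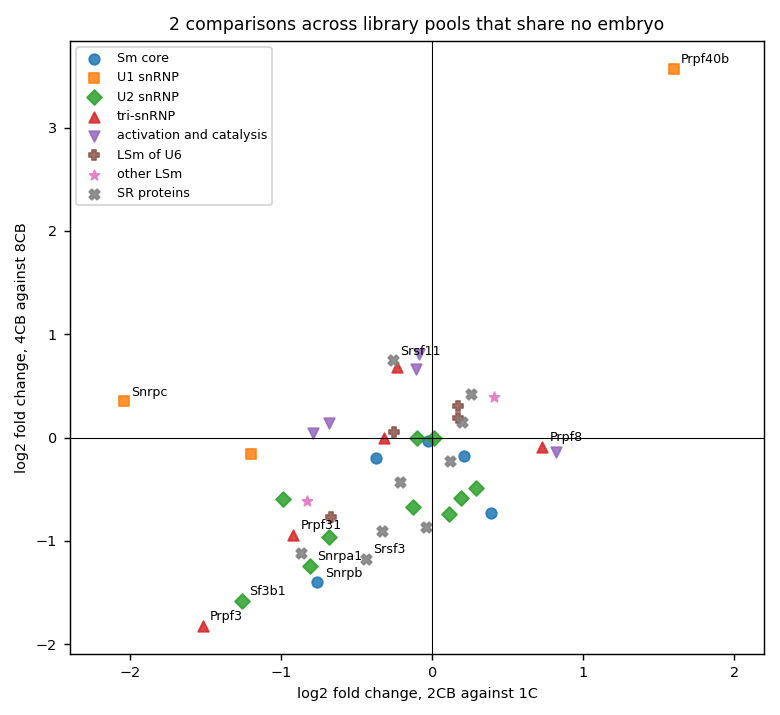
Log2 fold change in 2CB against 1C (x axis) and in 4CB against 8CB (y axis) for 43 of the 44 tested genes, with a symbol for each subcomplex. Prpf3, Sf3b1, Snrpb, Snrpa1 and Prpf31 lie low on both axes, Prpf40b high on both, and Snrpc low on the x axis alone (-2.04 and 0.35).

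Within a library pool, stages could be compared without crossing pools. Between 8CB and 1C none of the 44 genes was called by edgeR (0% of all genes). Before adjustment 6 of the 44 had p below 0.05, beside 550 of all 5940 genes tested. Prpf40b alone of the 44 was called by DESeq2 (log2 -2.28, adjusted p = 0.0921), for which no share of all genes is given here. The edgeR value for Prpf40b was -2.26 (SE 0.66, adjusted p = 0.232). Other genes at that unadjusted level included Prpf4 (log2 -0.98, SE 0.36, unadjusted p = 0.00958), Srsf11, Prpf4b and Prpf8. Between 4CB and 2CB no gene of the 44 was called by edgeR or by DESeq2, beside 0.0337% of all genes by edgeR. By edgeR 263 of all 5940 genes had p below 0.05 before adjustment, and 2 of the 44 did so in each test. These were Snrpc (log2 1.74, SE 0.52, unadjusted p = 0.00222), higher in 4CB, and Snrpg (log2 -0.88, SE 0.37, unadjusted p = 0.0242), lower in 4CB. For Sf3b1 the values within pools were -0.14 (SE 0.31) and -0.46 (SE 0.31), and for Prpf3 0.09 (SE 0.41) and -0.22 (SE 0.43).

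Other lists of splicing genes were counted in the same way, beside 24% of all tested genes that fell and 31.3% that rose. Among proteins that assemble and transport snRNPs, 7 of 17 tested genes (41.2%) fell and 3 (17.6%) rose in 2CB and 4CB relative to 1C and 8CB (median log2 -0.27). Gemin5, which recognizes snRNA in the SMN complex, fell by 2.37 on the log2 scale (SE 0.18, adjusted p = 1.63e-11) and Clns1a, a chaperone of Sm proteins, by 2.01 (SE 0.18, adjusted p = 5.56e-10). The Cajal body gene Coil rose by 1.05 (adjusted p = 0.0156) and Larp7, a binder of 7SK RNA, by 0.74 (adjusted p = 0.000624). The summed level of this list was 1675 to 2472 CPM in 2CB and 4CB and 2931 to 4816 CPM in 1C and 8CB, so that these ranges did not overlap. Much of that difference lay in Clns1a and Gemin5. Clns1a had medians of 1007, 243, 325 and 1247 CPM in 1C, 2CB, 4CB and 8CB, and Gemin5 of 631, 122, 132 and 634 CPM.

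The exon junction complex, which marks spliced mRNAs, fell in 5 of 7 tested genes (71.4%) and rose in 1 (14.3%; median log2 -0.73), with Magoh at log2 -1.50 (adjusted p = 3.04e-06), Casc3 at -1.13 (adjusted p = 0.000373) and Upf3a at 0.78 (adjusted p = 0.0564). In the Prp19 complex and the catalytic machinery 6 of 21 genes (28.6%) fell, near the 24% of all genes, and none rose, beside 31.3% of all genes (median log2 -0.20). The falls were led by Crnkl1, a scaffold of the active spliceosome (log2 -2.44, SE 0.25, adjusted p = 5.79e-09), and Slu7, a second-step factor (log2 -1.60, SE 0.21, adjusted p = 3.23e-07). Of the other snRNP proteins 6 of 25 (24%) fell, the same share as among all genes, and 3 (12%) rose, beside 31.3% of all genes (median log2 -0.16). Here Rbm17 (log2 -0.96, adjusted p = 0.00392), Phf5a, a small subunit of SF3b (log2 -0.93, adjusted p = 0.000266), and the helicase gene Ddx23 (log2 -0.93, adjusted p = 0.00969) fell, and U2af1, which reads the 3′ splice site, rose (log2 1.32, adjusted p = 0.00213), as did Snrnp27 and U2surp (both log2 0.55).

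Lists of regulators were more mixed. Among hnRNPs 6 of 20 tested genes (30%) fell and 5 (25%) rose, shares near the 24% and 31.3% of all genes (median log2 -0.11), with Syncrip (log2 -1.75, adjusted p = 1.48e-08) and Hnrnpll (log2 -1.55, adjusted p = 0.000299) lower and Ptbp3 (log2 1.56, adjusted p = 4.1e-06) and Hnrnpul1 (log2 0.82, adjusted p = 0.0259) higher. SR-related proteins and kinases had 2 falls (10%) and 4 rises (20%) in 20 genes, beside 24% and 31.3% of all genes (median log2 0.12). Srpk1, a kinase of SR proteins, and Tnpo3, which imports them into the nucleus, were the 2 that fell (log2 -0.76, adjusted p = 0.000295, and -0.74, adjusted p = 0.00245), whereas Scaf1 (log2 1.01, adjusted p = 0.000391) and Acin1 (log2 0.93, adjusted p = 0.00183) rose.

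**Figure D5:**
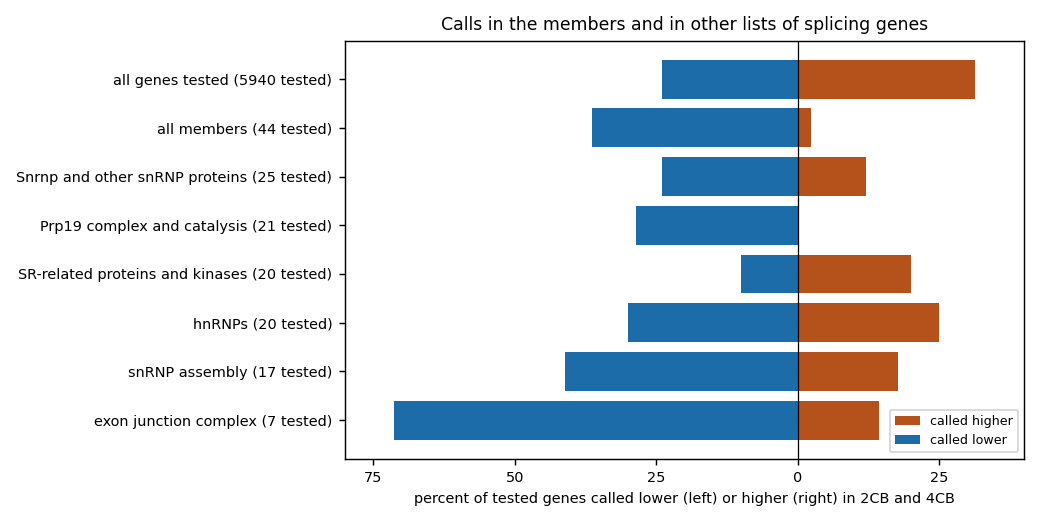
Percent of tested genes called lower (blue, to the left) or higher (orange, to the right) in 2CB and 4CB relative to 1C and 8CB embryos, for all genes, the 44 spliceosome and SR protein genes and 6 other lists of splicing genes, with the number tested in brackets. Among all genes 24% were lower and 31.3% higher, and among the 44 genes 36.4% and 2.27%.

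Cell type markers moved with the same division of stages. Of 8 trophectoderm markers, all tested, 6 (75%) were higher and 1 (12.5%) lower in 2CB and 4CB, beside 31.3% and 24% of all genes, and their summed level was 2597 to 5593 CPM there beside 620 to 1249 CPM in 1C and 8CB. The trophectoderm gene Elf5 was at 0 in every 1C embryo, and Krt8 did not exceed 12 CPM there. Other markers of the list were present in 1C, among them Tfap2c at 269 to 723 CPM and Tead4 at 105 to 202 CPM. Tfap2c was the marker called lower in 2CB and 4CB (log2 -0.74), and Tead4 had no call (log2 -0.01). Of 6 epiblast markers 3 were tested, with 2 lower and 1 higher, and the list summed to 183 to 787 CPM in 2CB and 4CB and to 291 to 1511 CPM in 1C and 8CB. Pou5f1, a defining epiblast gene, was too low to be tested, at 0 to 16.7 CPM over the 4 stages. Of 6 primitive endoderm markers 5 were tested, with 4 higher and 1 lower, summing to 826 to 2978 CPM in 2CB and 4CB and 678 to 1138 CPM in 1C and 8CB, and Sox17 was at 0 in every 8CB embryo. None of 12 oocyte and cumulus markers passed the filter. They summed to 0 to 22.8 CPM in 2CB and 4CB and to 9.99 to 119 CPM in 1C and 8CB, with Has2 and Ptx3 at 0 in all embryos. The part of cell type makeup in the lower level of spliceosome and SR protein genes was not tested.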

How the data were processed

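The authors barcoded single embryos, sequenced them in 2 pools with CEL-Seq2 and deposited a table of whole-number UMI counts (genes by embryos) without normalization. The submitters' processing notes name GRCm38, HISAT2, HTSeq 0.6.1 and DESeq2 1.10.1. The annotation release and the strand setting are not given in the sources used here. Stage and embryo were read from the column names, and 24 columns of other embryos were not used. Symbols came from GENCODE M21 (51719 of 52366 genes).

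Counts were fitted with edgeR 4.0.16 in R 4.3.3 (TMM, filterByExpr by stage, glmQLFit, glmQLFTest, 1 mean per stage over 24 embryos, calls at adjusted p below 0.1). The SE is the log2 fold change over the root of its F statistic. TMM factors ranged from 0.928 to 1.07, and the biological coefficient of variation was 0.442. Log2 values are relative to this scaling. The fit was also run on simulated counts of independent embryos with 200 changed genes, far fewer than were called across pools here. Its outcome is not given, and no result rests on it. DESeq2 1.42.0, other scalings, filters, thinning, a stricter threshold, a replicate block and leaving out embryos were alternatives. Embryos with the same number did not deviate together (36 pairs, mean r = -0.017, 2 pairs over 0.1), so the embryos were treated as unpaired. No embryos looked duplicated.

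Members, lists and promoter motifs were chosen with earlier results of these data known. Stage values are given, in each subcomplex, for up to 3 called genes each way with the largest change and for the uncalled gene with the highest level, and other genes more briefly. In the other lists, the 2 called genes with the largest change each way are named, with ties. Lsm14b and the genes with an unadjusted p below 0.05 within pools or in 1 comparison were named after their values were seen. The values of 1 gene are not reported here, and it is counted only in totals.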

Additional observations from a re-analysis of the deposited data

Results flagged for a closer look

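Within groups of 6 embryos, 5 values stood apart from the others by a gap over 0.625 of the group's range, out of 120 groups tested. Chance gives such a gap in about 1 in 20 groups. The 120 groups did not cover every gene and stage. Srsf2 was at 119 CPM in 1C replicate 1, where the other 1C embryos lay at 33.5 to 65.4, and at 67.9 CPM in 2CB replicate 2 beside 16 to 31.7. Snrpa1 was at 122 CPM in 2CB replicate 6 beside 43.2 to 66.1. The other values were from 2CB replicate 2, with Sf3b4 at 287 CPM beside 112 to 176 and Lsm14a at 217 CPM beside 67.5 to 91.2. Genes outside the groups tested also had such gaps, for example Sf3b3 at 238 CPM in 8CB replicate 5 beside 110 to 143. Srsf6 was at 523 CPM in 1C replicate 1 beside 142 to 222.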

How the results depend on the processing

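The count of 16 genes lower in 2CB and 4CB relative to 1C and 8CB ranged from 12 to 16 when each embryo was left out, and the 1 gene higher from 1 to 2 (2 without 1C replicate 6). It was 2 with no filter, 2 with at least 5 UMIs in 12 embryos (Lsm14b in both) and 2 without the 2 shallowest embryos of each pool (Prpf38b, an alternative chosen after seeing the data). In 2CB against 1C the 11 lower genes became 5 with no filter and 7 after thinning to equal depth. In 4CB against 8CB the 3 higher genes became 1 with no filter, and the 13 lower genes 8 at an adjusted p below 0.05 and 8 after thinning. In 8CB against 1C the count of 0 became 1 with DESeq2 and 1 with no filter. Leaving out each embryo gave 11 to 15 genes among the 4 stages, 1 to 3 higher and 9 to 11 lower in 2CB against 1C (1 higher without 2CB replicate 2), 2 to 4 higher and 10 to 13 lower in 4CB against 8CB, and 0 to 0 within pools and for the difference. The cause of these changes was not tested. With a replicate block 16 genes were lower and 1 higher in 2CB and 4CB relative to 1C and 8CB. No call of a named gene changed in that comparison. In 4CB against 8CB the 13 lower genes became 11 with the block, so some calls given for that comparison were lost. The count among the 4 stages went from 12 to 11. The block moved no count by over 1.5 times.

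Of the 16 genes that fell, 10 kept their call in every fit without 1 embryo. Prpf39 lost its call with DESeq2, its size factors, no scaling factor, no filter, thinning and without the shallowest embryos, Lsm8 with the first 2, no scaling factor and thinning, Srsf2 and Snrpc with thinning, Sf3b3 with the size factors of DESeq2, no scaling factor, no filter, thinning and without the shallowest embryos, and Srsf9 with no filter and without the shallowest embryos. Srsf1 was called lower with at least 5 UMIs in 12 embryos, thinning and without the shallowest embryos. Among the 22 genes chosen by the rule for stage values no log2 fold change turned its sign under these settings, whereas uncalled genes near 0 did so when 1 embryo was left out (Snrpd1, Snrpd2, Sf3a1, Sf3a3, Sf3b2 and Srsf5). The lowest total, 70941 UMIs in 1 8CB embryo, limits what could be seen of low genes, and 14 of the 58 could not be tested. Library pool cannot be told apart from the division of stages under any of these settings.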
